A study of Homo sapiens with 6 samples.

Results

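ISG15, a small ubiquitin-like protein that is attached to other proteins, was examined together with the genes that attach and remove it. The group holds 6 of the 58174 genes in the deposited expression table, ISG15 itself, its activating enzyme UBA7, its conjugating enzyme UBE2L6, its ligase HERC5, the related ligase HERC6 and its protease USP18. They were chosen by name and by their place in the ISG15 system, with earlier results of the same comparison known, so their differences between the groups are given as a description and no support is drawn from a test on them. SiHa, an established cell line from a human cervical squamous cell carcinoma that carries HPV16, was transfected with the plasmid GV230-BRCA1 (OV-BRCA1 group, 3 samples) or with GV230 lacking the insert (NC group, 3 samples), in both cases with Lipofectamine 3000. RNA was collected after 48 h and mRNA libraries were sequenced, and the comparison asks which transcripts differ when BRCA1 is supplied from a plasmid. Both groups thus carried plasmid DNA and transfection reagent, and cells without either were not analysed here. The levels are FPKM, fragment numbers corrected for transcript length and for how much was mapped per sample, summed over the transcripts of each gene, which allows levels of different genes to be set side by side. The study states how many reads were sequenced per library, but the deposited tables hold no counts and whole fragments could not be recovered from the low values, so the number of fragments behind each value is not given here.

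Interferon switches on ISG15 and most of the enzymes around it, and epithelial cells with active interferon signalling are known for large amounts of free ISG15 and of ISG15 conjugates. UBA7 activates ISG15, UBE2L6 receives it as a thioester, and HERC5 passes it to lysines of target proteins, often ones that are being newly made, while HERC6 does this work in the mouse. USP18 cuts ISG15 off again and also sits at the type I interferon receptor, where it dampens signalling, so the system contains its own brake.

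The promoter windows of HERC5, HERC6 and ISG15 are shown because the 3 genes share a direction in the comparison while their windows differ in the letters of the interferon-stimulated response element, the DNA motif read by interferon-activated transcription factors. Each window runs from 250 bases before to 50 bases after the RefSeq start, which is base 251, in build GRCh38.p14 and on the plus strand. Capitals mark the letters searched for, GAAA, any 2 bases and GAAA again, or TTTC, any 2 bases and TTTC where the motif lies on the minus strand. The windows are chr1:1013247-1013546 for ISG15, chr4:88456869-88457168 for HERC5 and chr4:88378602-88378901 for HERC6.
ISG15: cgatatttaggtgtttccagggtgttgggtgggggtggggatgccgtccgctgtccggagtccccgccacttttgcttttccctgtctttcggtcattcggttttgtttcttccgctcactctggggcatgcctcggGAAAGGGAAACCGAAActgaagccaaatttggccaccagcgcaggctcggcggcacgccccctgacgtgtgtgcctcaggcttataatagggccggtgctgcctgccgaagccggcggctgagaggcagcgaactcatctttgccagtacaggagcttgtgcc
HERC5: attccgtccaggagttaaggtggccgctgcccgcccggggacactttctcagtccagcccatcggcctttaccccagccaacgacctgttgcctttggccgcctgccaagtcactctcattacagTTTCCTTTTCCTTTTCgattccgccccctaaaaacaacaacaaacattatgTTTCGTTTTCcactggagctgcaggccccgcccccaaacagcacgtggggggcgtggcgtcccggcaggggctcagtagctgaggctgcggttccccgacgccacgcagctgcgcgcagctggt
HERC6: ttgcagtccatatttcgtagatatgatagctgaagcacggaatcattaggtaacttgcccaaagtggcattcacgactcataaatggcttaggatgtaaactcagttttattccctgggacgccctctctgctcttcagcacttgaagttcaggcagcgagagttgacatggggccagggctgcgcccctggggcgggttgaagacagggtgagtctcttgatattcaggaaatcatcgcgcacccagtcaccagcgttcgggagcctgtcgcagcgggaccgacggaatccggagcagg
The ISG15 window held 2 matches that overlap each other, at bases 138 to 147 and 144 to 153. The HERC5 window held 3 matches on the minus strand, of which those at bases 126 to 135 and 132 to 141 overlap and the other lies at 177 to 186. No match lay in the HERC6 window or in either of the 2 windows of UBE2L6 on chromosome 11, which says only that these letters are not in those stretches. Of 34796 RefSeq promoter windows, 1243 (3.57%) held the motif. The letters TTCNNNGAA, the core of the gamma-activated site, were in none of the 5 windows of members and in 7.67% of all windows. The promoter table matched 4 of the 6 members, and UBA7 and USP18 were not matched.

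All 6 members were higher in the OV-BRCA1 group than in the NC group, and in each of them the lowest OV-BRCA1 sample lay above the highest NC sample. Of the 16321 genes that entered the test, 23.4% were separated in this direction. The criterion, a Benjamini-Hochberg adjusted p-value below 0.05 from limma's moderated test with an absolute log2 fold change above 1, was met by 5 of the 6 members, beside 3.99% of all tested genes in either direction and 2.89% in the direction of higher levels. This count describes genes chosen with the comparison known, and nothing is read from it. The median log2 fold change of the 6 members was 1.89, beside -0.04 over all tested genes. In RNA from whole cultures, more cells that express a gene and more RNA per cell cannot be told apart.

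**Figure D1:**
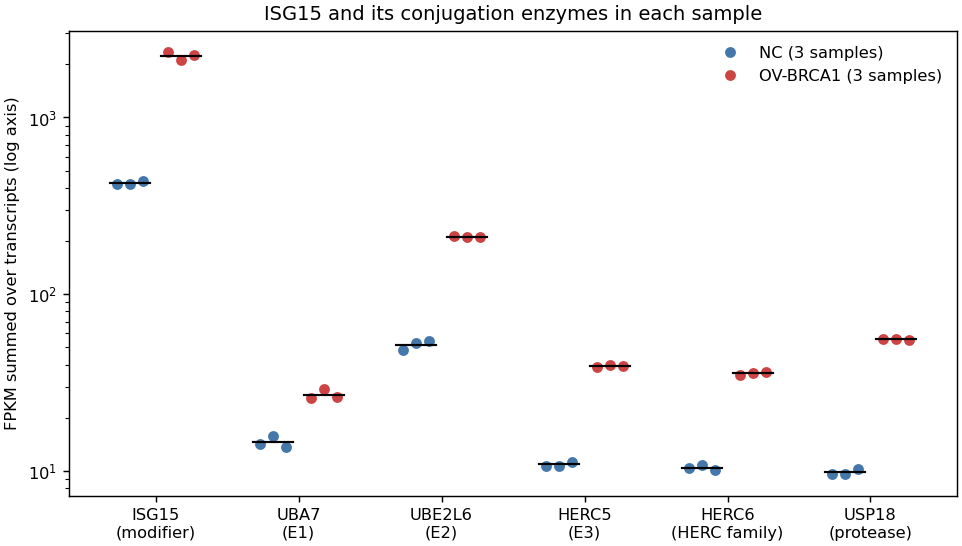
FPKM (log axis) of the 6 members in each OV-BRCA1 and NC sample, with points for samples and lines for the group mean (n = 3). The groups are separate for every gene, with ISG15 at 2114 to 2336 FPKM against 418 to 438 and UBA7 at 26.0 to 28.9 against 13.7 to 15.7.

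ISG15 (ENSG00000187608, chromosome 1, 1001138 to 1014540, plus strand) is the modifier itself and was by far the most abundant member. Samples 1, 2 and 3 of the OV-BRCA1 group had 2336, 2114 and 2243 FPKM, and those of the NC group had 418, 420 and 438 FPKM, an order kept for all values that follow. The groups stayed far apart, and the OV-BRCA1 samples varied more among themselves (coefficient of variation 5.0%) than the NC samples (2.6%). The means were 2231 ± 112 and 426 ± 11.0 FPKM (SD, n = 3), a ratio of 5.24 and a log2 fold change of 2.39 (SE 0.05) on the scale of log2(FPKM + 1), on which all fold changes are given. Among 18 ubiquitin-like modifiers ISG15 held rank 2 by mean in the NC group, level with the polyubiquitin gene UBB at 427 FPKM, and rank 1 or 2 in single NC samples. It held rank 1 in every OV-BRCA1 sample, where UBB averaged 387 FPKM. Among all tested genes its mean level moved from rank 105 to rank 17.

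The activating enzyme UBA7 (ENSG00000182179, chromosome 3, 49805207 to 49813946, minus strand), which starts the cascade, showed the smallest difference of the 6. It had 26.0, 28.9 and 26.1 FPKM in the OV-BRCA1 samples and 14.2, 15.7 and 13.7 FPKM in the NC samples. The groups did not overlap, and the spread within each was the widest of the 6 members, with a coefficient of variation of 6.1% and 7.1%. The means were 27.0 ± 1.64 and 14.5 ± 1.03 FPKM, with a log2 fold change of 0.85 (SE 0.08), so UBA7 was the member that stayed below the fold part of the criterion. It was the sixth of 10 activating enzymes in every sample of both groups, and UBA1, the main activating enzyme of ubiquitin, led with 234 FPKM in the NC group and 219 FPKM in the OV-BRCA1 group.

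UBE2L6 (ENSG00000156587, chromosome 11, 57551656 to 57568284, minus strand) carries ISG15 from UBA7 to the ligase. Its level was 214, 210 and 211 FPKM in the OV-BRCA1 samples and 48.1, 52.7 and 54.2 FPKM in the NC samples. The OV-BRCA1 samples lay close together (coefficient of variation 1.0%) and all of them far above the NC samples. The mean was 212 ± 2.14 against 51.6 ± 3.17 FPKM, a log2 fold change of 2.02 (SE 0.06). Among 39 genes of the conjugating-enzyme family, not all of them necessarily active enzymes, it held rank 10 by mean in the NC group. It held rank 1 in each OV-BRCA1 sample, where the next gene, UBE2S, averaged 200 FPKM. Its closest relative UBE2L3, which serves ubiquitin, was almost level with it in the NC group, with a UBE2L6 to UBE2L3 ratio of 1.07 ± 0.06, and the ratio was 3.66 ± 0.17 in the OV-BRCA1 group.

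HERC5 and HERC6 lie next to each other on chromosome 4 on the plus strand, with 14005 bases between the end of HERC6 (ENSG00000138642, 88378739 to 88443111) and the start of HERC5 (ENSG00000138646, 88457117 to 88506163). HERC5, the main ISG15 ligase of human cells, had 38.8, 39.8 and 39.2 FPKM in the OV-BRCA1 samples and 10.7, 10.7 and 11.3 FPKM in the NC samples. HERC6 had 35.1, 35.8 and 36.2 FPKM in the OV-BRCA1 samples and 10.4, 10.8 and 10.1 FPKM in the NC samples. In both genes the samples of a group lay close together and the groups were well separated. The log2 fold changes were 1.76 (SE 0.05) for HERC5 and 1.68 (SE 0.05) for HERC6. The ratio of HERC5 to HERC6 was 1.11, 1.11 and 1.08 in the OV-BRCA1 samples and 1.03, 0.991 and 1.11 in the NC samples, so it overlapped between the groups.

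USP18 (ENSG00000184979, chromosome 22, 18149899 to 18177397, plus strand), the protease that removes ISG15, had the largest ratio of means. Its level was 55.9, 56.1 and 54.7 FPKM in the OV-BRCA1 samples and 9.66, 9.55 and 10.3 FPKM in the NC samples. The 3 OV-BRCA1 samples were nearly equal and the groups did not overlap. The means were 55.6 ± 0.76 and 9.83 ± 0.40 FPKM, a ratio of 5.65 and a log2 fold change of 2.39 (SE 0.05), close to that of ISG15. Among 50 ubiquitin-specific proteases USP18 held rank 25 by mean in the NC group and rank 2 in each OV-BRCA1 sample, behind USP10, which averaged 40.0 FPKM in NC and 67.7 FPKM in OV-BRCA1 samples. Part of its reads may be shared with USP41, a near-identical copy on the same chromosome, since 23.0% of the 50-base windows of the USP18 transcript also occur in USP41 transcripts. USP41 was listed at 12.9, 14.8 and 17.5 FPKM in the OV-BRCA1 samples and 3.46, 2.58 and 4.03 FPKM in the NC samples, in large part from a short transcript of 182 bases, USP41-203, whose windows all occur in USP18 too. The division of reads between both genes is therefore uncertain.

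The order of the 6 levels differed. In the NC group it ran from ISG15 (426 FPKM) over UBE2L6 (51.6 FPKM) and UBA7 (14.5 FPKM) to HERC5, HERC6 and USP18 (10.9, 10.4 and 9.83 FPKM), and among the last 3 the samples of HERC5 overlapped those of HERC6 and the samples of HERC6 overlapped those of USP18. In the OV-BRCA1 group the order was ISG15, UBE2L6, USP18, HERC5, HERC6 and UBA7, and no neighbours overlapped. By gene sums UBA7 thus went from place 3 to place 6, and USP18 from place 6 to place 3. These moves depend on the UBA7 forms with a retained intron, which are part of its sum. The single coding form, UBA7-201, averaged 5.47 FPKM in the NC group. That was below USP18 (9.83 FPKM) and the coding form HERC5-201 (9.96 FPKM). It was above HERC6-201 (4.54 FPKM), although HERC6-203, also listed as protein coding, added 3.28 FPKM to HERC6. By coding forms UBA7 was therefore not at place 3 in the NC group.

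The proportions within the system shifted toward the modifier and away from its activating enzyme. The level of ISG15 was 89.9, 73.2 and 86.0 times that of UBA7 in the OV-BRCA1 samples and 29.4, 26.8 and 32.0 times in the NC samples, with no overlap. Against UBE2L6 the multiple averaged 10.5 ± 0.43 in OV-BRCA1 and 8.25 ± 0.39 in NC samples, and against HERC5 it was 56.8 ± 3.53 and 39.1 ± 0.18. Against USP18 the multiple was 41.8, 37.7 and 41.0 in the OV-BRCA1 samples and 43.3, 44.0 and 42.6 in the NC samples, so modifier and protease kept nearly the same proportion and the small difference went the other way. These ratios compare transcripts and not proteins. The UBA7 sums include forms with a retained intron, 55.1% to 57.6% of the gene in the OV-BRCA1 samples and 53.7% to 66.4% in the NC samples. The multiples over UBA7 are therefore not multiples over its coding form.

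At the level of transcripts, the difference was carried mainly by 1 protein-coding form in each member other than UBA7. ISG15-201 made up 97.5% to 99.7% of the ISG15 sum and UBE2L6-201 made up 93.5% to 98.0% of the UBE2L6 sum, and USP18 had 1 listed transcript. In HERC6 the groups differed by form. HERC6-201 had 27.6, 28.2 and 25.3 FPKM in the OV-BRCA1 samples and 4.61, 5.07 and 3.94 FPKM in the NC samples, which was 70.0% to 78.7% of the gene in the first group and 38.9% to 46.9% in the second. For this form alone the log2 fold change was 2.34, beside 1.68 for the gene. HERC6-203, also listed as protein coding, had 2.94, 2.59 and 5.83 FPKM against 3.06, 3.05 and 3.73 FPKM, and its groups overlapped. HERC6-201 and HERC6-203 have nearly the same span and length (3779 and 3781 bases), so the division of reads between them is uncertain. In UBA7 the single coding form, UBA7-201, had 11.3, 12.0 and 10.8 FPKM against 5.27, 5.27 and 5.86 FPKM, and 9 forms with a retained intron together had 14.3, 16.2 and 15.0 FPKM against 8.69, 10.4 and 7.35 FPKM. Neither pair of groups overlapped, and the coding form supplied less than the retained-intron forms in every sample. In HERC5 the sum was steadier than its forms, since HERC5-201 had 38.1, 31.1 and 37.4 FPKM in the OV-BRCA1 samples and in the second of them the retained-intron form HERC5-205 was listed at 7.82 FPKM. How the authors' software divided reads among forms was not given in the sources used here, so single forms are less certain than sums.

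**Figure D2:**
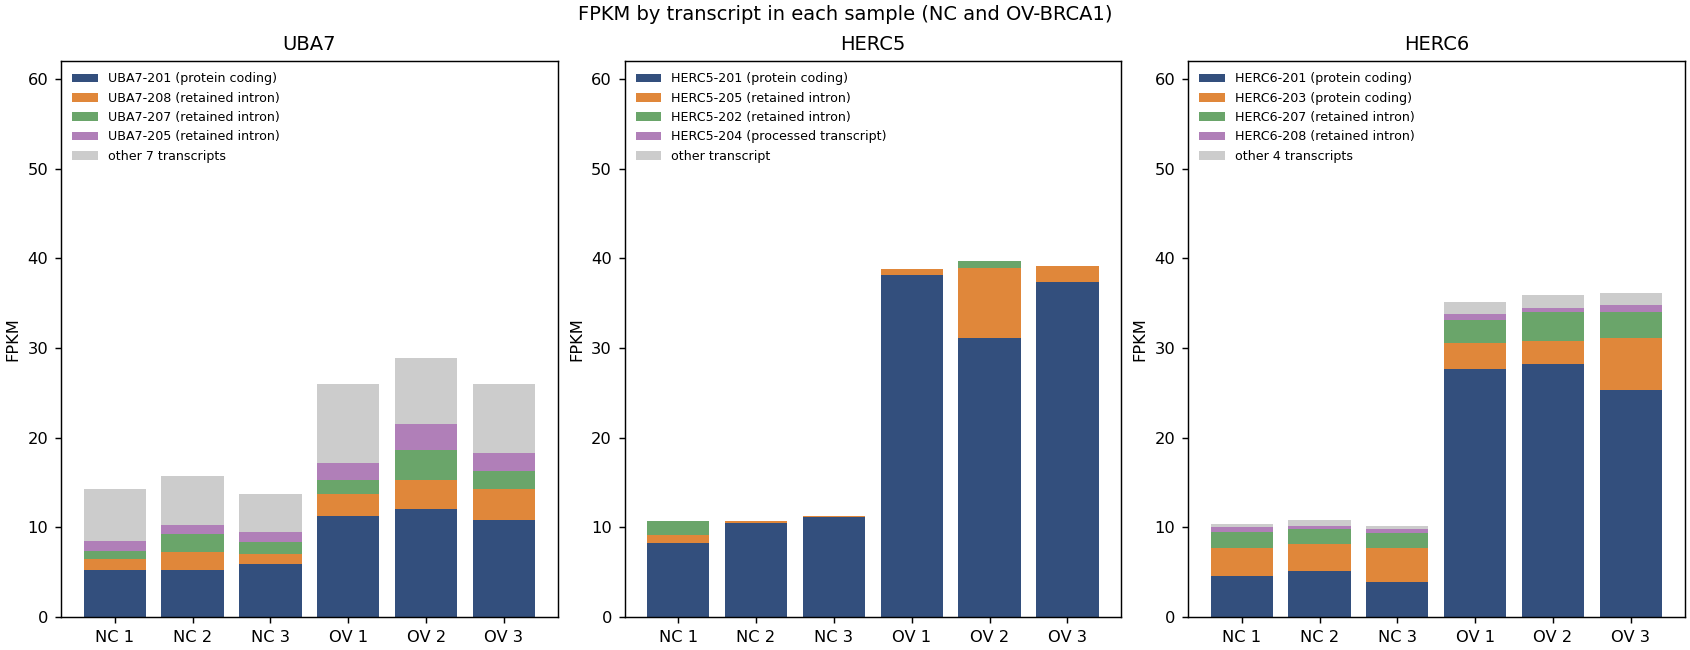
FPKM (y axis, from 0) of UBA7, HERC5 and HERC6 in each sample, NC on the left and OV-BRCA1 (OV) on the right, with bars stacked by transcript. As the deposited values divide the forms, HERC6-201 made up at least 70.0% of HERC6 in the OV-BRCA1 samples and at most 46.9% in the NC samples.

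The genes that lie over a member on the genome were low. AL645608.1, an antisense gene inside the span of ISG15, had 5.47, 3.88 and 5.16 FPKM in the OV-BRCA1 samples and 2.20, 2.96 and 3.14 FPKM in the NC samples, and whether the libraries kept strand was not given in the sources used here. AL645608.3, a pseudogene on the other strand of the same span, had at most 1.27 FPKM, and MIR5193 within UBA7 had at most 0.173 FPKM. Apart from USP18, the main transcripts of the members shared no 50-base window with another gene, except HERC6-201, which shared 0.804% of its windows with HERC3.

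The members were also set beside the rest of their enzyme families, 117 genes of which 107 entered the test, with USP41 left out because it shares sequence with USP18 (it met the criterion, with a log2 fold change of 1.89). None of the 107 met the criterion in limma's test, and under other settings that kept the criterion at most 2 did. By the adjusted p-value alone 23 were higher and 20 lower, beside 16.4% higher and 18.9% lower over all tested genes. An unadjusted p-value below 0.05 was found for 49, beside 7507 of all 16321 tested genes. Their median log2 fold change was 0.01 and their range -0.89 to 0.90, so that UBA7, with the smallest difference of the members, lay near the top of that range. Among the 9 other activating enzymes UBA6 rose (log2 fold change 0.51, limma adjusted p = 0.00535) and no other passed. Of 37 other genes of the conjugating-enzyme family 9 rose and 3 fell, and UBE2C and UBE2S, which build ubiquitin chains for the anaphase-promoting complex, were among those that fell, by 0.89 and 0.47. Of the 4 other HERC genes only HERC4 passed, with a log2 fold change of 0.85 (limma adjusted p = 0.00108). HERC4 was the most abundant HERC gene by mean in both groups, although HERC3 was above it in NC sample 2 (38.2 against 36.6 FPKM). Of 42 other USP genes 9 rose and 11 fell, and of 15 other modifiers 3 rose and 6 fell. The rank of HERC5 and HERC6 among 6 HERC genes (4 and 5 by mean in NC, 3 and 4 in OV-BRCA1 samples) depends on HERC3, whose sum rests mainly on 1 transcript that GENCODE 29 does not list.

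**Figure D3:**
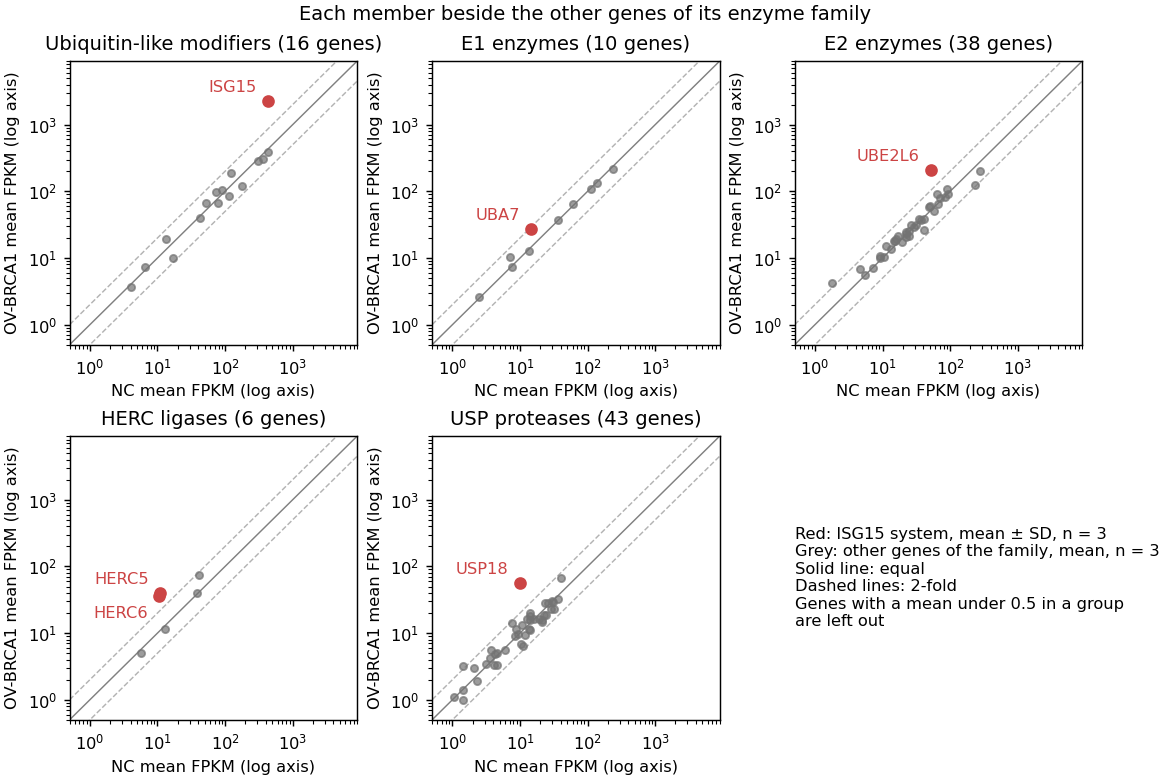
Mean FPKM in the NC group (x, log axis) and in the OV-BRCA1 group (y, log axis) of the members, in red, and of the other genes of each enzyme family, in grey (n = 3 per group). ISG15, UBE2L6, HERC5, HERC6 and USP18 lie above the dashed line of a 2-fold difference, as do the low grey points of UBE2QL1 (4.23 against 1.80 FPKM) and USP31 (3.17 against 1.44 FPKM), and UBA7 lies just under it, while UBE2L6 and ISG15 are the highest points of their families in the OV-BRCA1 group.

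Of 31 further genes of the ISG15 pathway 29 entered the test (USP2 and ITGAL were too low), and 4 met the criterion, all of them higher and all from the list of reported ISG15 targets. That is 13.8% of those tested, beside 3.99% of all tested genes. The lists were chosen with earlier results of these data known, so nothing is read from this share. With the most abundant transcript in place of the sum the count was 5, with STAT2 added. MX1, a GTPase that blocks influenza and other viruses, had 252, 246 and 255 FPKM in the OV-BRCA1 samples and 20.2, 20.4 and 20.3 FPKM in the NC samples (log2 fold change 3.57, SE 0.04, limma adjusted p = 2.23e-07). The other 3 were DDX58, which encodes the RNA sensor RIG-I (2.91, limma adjusted p = 1.24e-06), IFIH1, which encodes the RNA sensor MDA5 (2.57, limma adjusted p = 4.12e-06), and EIF2AK2, which encodes the kinase PKR (1.09, limma adjusted p = 0.000101). All 4 are themselves interferon-stimulated genes. Of the 14 target genes 6 rose and 3 fell by the adjusted p-value alone, beside 16.4% higher and 18.9% lower over all tested genes. Those that fell were PLCG1 (-0.69), PCNA (-0.52) and EIF4E2 (-0.28). The median over the 14 was 0.13.

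**Figure D4:**
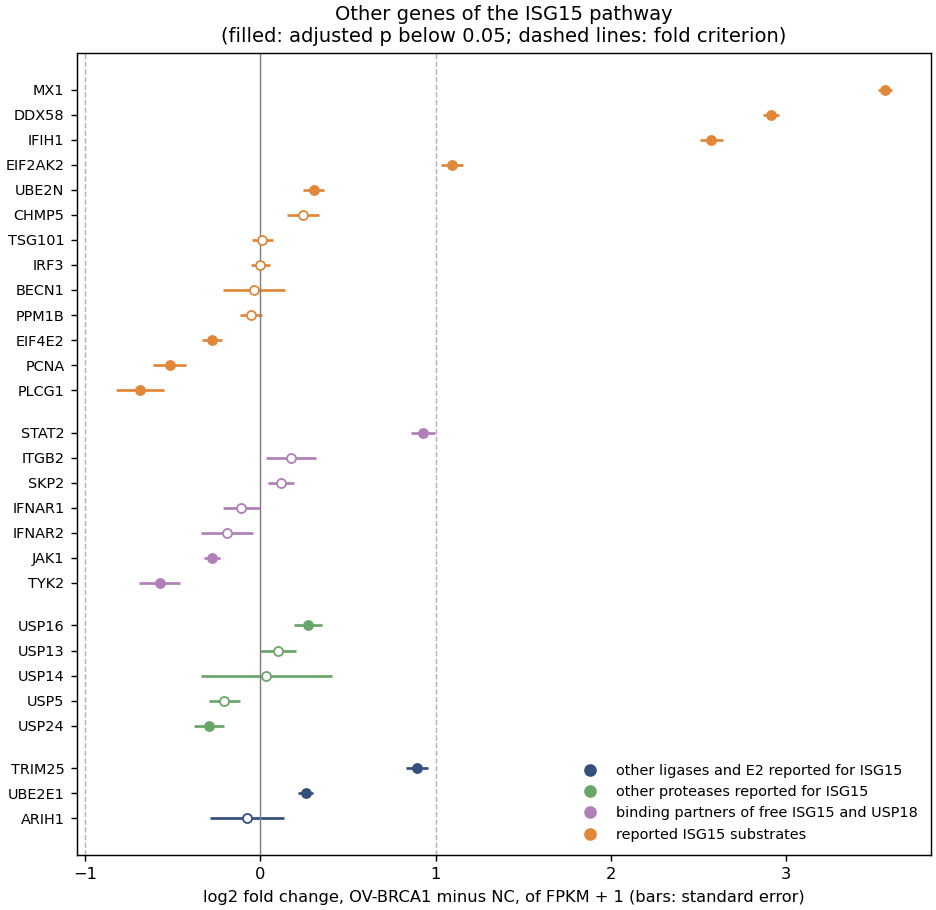
Log2 fold change (OV-BRCA1 minus NC, on log2(FPKM + 1)) of further ISG15 pathway genes (1 tested gene is not drawn), in colours by list, with bars for the SE and filled points for an adjusted p-value below 0.05. MX1, DDX58, IFIH1 and EIF2AK2 lie beyond 1, and the others lie between -0.69 and 0.93.

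Other enzymes reported to act on ISG15 did not meet the criterion. TRIM25, a ubiquitin ligase for RIG-I that has also been reported as an ISG15 ligase, had 38.7, 37.9 and 43.2 FPKM in the OV-BRCA1 samples and 21.3, 20.9 and 20.7 FPKM in the NC samples, and it rose by adjusted p-value with a log2 fold change of 0.90 (SE 0.06, limma adjusted p = 0.000211). UBE2E1 rose by 0.26 (limma adjusted p = 0.00449), and ARIH1 did not pass at -0.08. Of the 5 other tested proteases reported to act on ISG15, USP16 rose by 0.27 and USP24 fell by 0.29 (limma adjusted p = 0.0409 and 0.0392), and USP14, the most abundant, had 18.7 to 45.3 FPKM against 20.3 to 34.7 FPKM with overlap. Of the 7 tested binding partners of free ISG15 and USP18, STAT2, through which USP18 reaches the interferon receptor, rose by 0.93 (limma adjusted p = 0.000218), and the kinases TYK2 and JAK1 fell by 0.58 and 0.28. The receptor chain IFNAR2, which USP18 binds, had 8.46, 8.27 and 8.74 FPKM in the OV-BRCA1 samples and 12.6, 8.11 and 9.25 FPKM in the NC samples, and did not pass.

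For each member the tested genes with the most similar profile were found by the root mean square difference, over the 6 samples, of log2(FPKM + 1) minus the NC mean. ISG15 and USP18 lay 0.05 apart and shared CMPK2 as the nearest gene outside the group, a mitochondrial nucleotide kinase that had 55.7, 55.1 and 54.2 FPKM in the OV-BRCA1 samples and 9.45, 9.99 and 10.1 FPKM in the NC samples. Its distance was 0.05 from ISG15 and 0.03 from USP18. GBP1 was also among the 3 nearest genes of both, and AL031777.3 among those of USP18. UBE2L6 was nearest to OAS3 (0.05), DDX60 and RGS2, and HERC6 to HIST2H4A (0.04), IFI16 and PARP14. HERC5 was nearest to CXCL3 (0.04), STMN3 and H1F0, and it lay 0.07 from HERC6. UBA7 was nearest to C19orf66 (0.04), ERO1A and SQOR. This measure orders genes mainly by the size of their difference between the groups.

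BRCA1 had 35.7, 40.8 and 34.9 FPKM in the OV-BRCA1 samples and 20.1, 14.9 and 21.7 FPKM in the NC samples, a log2 fold change of 0.95, and plasmid and native transcripts are not separated in these values. Of the interferon transcripts looked at, IFNB1 was at 0.686, 0.774 and 0.479 FPKM against 0.143, 0.0641 and 0 FPKM, and IFNL1, which met the criterion, was at 3.76, 2.68 and 2.29 FPKM against 0 FPKM in all 3 NC samples. Of 11 squamous and epithelial markers 5 had at least 1 FPKM in every sample, led by KRT17, KRT8 and KRT18, whereas KRT5 and TP63 were close to 0, and their sum was 1596 to 1744 FPKM in the OV-BRCA1 samples and 1939 to 1982 FPKM in the NC samples. KRT17 was lower in the OV-BRCA1 samples (means 1033 and 1434 FPKM), while KRT8 (373 and 326 FPKM) and KRT18 (252 and 192 FPKM) were higher. Of the 7 epithelial markers tested 4 rose and 2 fell by the adjusted p-value alone, beside 16.4% higher and 18.9% lower over all tested genes. EPCAM (6.79 and 2.59 FPKM) was the 1 that met the criterion. The sum of 7 leukocyte markers was 34.7 to 40.9 FPKM against 22.8 to 24.4 FPKM, with the defining marker PTPRC at 0 in all samples and CD68 as the largest term in the OV-BRCA1 samples (26.3 against 3.43 FPKM). All 3 leukocyte markers tested met the criterion, beside 3.99% of all tested genes. CD68 and HLA-DRA (3.70 against 0.606 FPKM) had a higher level and CD14 a lower level (7.79 against 19.4 FPKM). Endothelial and fibroblast markers summed to at most 1.45 and 0.231 FPKM. The part of these markers in the results for the members was not tested.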

How the data were processed

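The deposited values are FPKM per transcript, made by the authors after quality control of the reads, in 1 file per sample and in 1 matrix with the same values. The submitters' processing notes name FastQC, HISAT2 and build hg38. The quantification tool, the annotation and the use of strand were not given in the sources used here. The authors tested counts with DESeq, which could not be repeated on FPKM.

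FPKM of 199167 transcripts were summed per gene and named by GENCODE 29, and 338 genes kept their identifier. Genes with at least 0.5 FPKM in at least 3 samples (16321) were tested with limma 3.58.1 (R 4.3.3), moderated test with trend, on log2(FPKM + 1), with Benjamini-Hochberg adjustment over all of them. The test was tried on simulated data first. Fold changes on this scale understate those of low genes. The paper describes the 3 samples per group as biological replicates. The 6 members and the gene lists were chosen with earlier results of these data known.

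Named were the members, genes overlapping or copying one, per list up to 4 genes past the criterion and the most abundant gene, and 3 nearest profiles per member. Some genes covered by these rules are not reported here. The other list genes, transcripts and markers named were picked with their values in view. Promoter sequences are RefSeq's (GRCh38.p14). Tables and figures used Python 3.11.15, numpy 2.4.6, pandas 2.3.3 and matplotlib 3.10.9.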

Additional observations from a re-analysis of the deposited data

How the results depend on the processing

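The count of members past the criterion was 5 under every alternative that kept the criterion (pseudocount 0.1, both other filters, the scaling by median of ratios, transcript choices, the replicate block and each sample left out) and 6 by adjusted p-value alone. No log2 fold change of a member changed sign. The widest range was that of HERC6, 1.67 to 2.34, with the highest value for its most abundant transcript, and the members' median of 1.89 became 2.19 for the most abundant transcripts and 1.94 both for protein-coding transcripts and for a pseudocount of 0.1. With each sample left out in turn it was 1.86 to 1.92. Genes past the criterion numbered 651, 1280 with a pseudocount of 0.1, 5764 by adjusted p-value alone and 564 to 663 with a sample left out. Further pathway genes past the criterion numbered 4, 5 for the most abundant transcript (with STAT2 added, 1.34) and 16 by adjusted p-value alone. Family genes numbered 0, and 43 by adjusted p-value alone, 1 for the most abundant transcript (USP42), 1 for protein-coding transcripts (HERC4) and 2 with a pseudocount of 0.1 (UBE2QL1 and USP31). The cause of these shifts was not tested. Same-numbered samples did not deviate together (correlations -0.024, 0.025 and 0.014), which cannot show whether they were prepared together. They were treated as unpaired, and the replicate block gave 646 genes, 5 members, 4 pathway genes and 0 family genes. The fragments behind each value were not recovered, so no counting error is given for low values such as those of single transcripts.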
